A study of Mus musculus with 8 samples.

Results

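Receptors and intracellular signalling genes through which hypothalamic cells sense leptin, insulin, ghrelin, and GLP-1 were compared among the arcuate nucleus (Arc), the ventromedial hypothalamus (VMH), the dorsomedial hypothalamus (DMH), and the lateral hypothalamus (LH). The set was 9 genes of the 20284 genes named on the array, chosen by symbol through the RefSeq accession that the files give for each probe. They were the receptor genes *Lepr*, *Insr*, *Igf1r*, *Ghsr*, and *Glp1r* and the intracellular genes *Socs3*, *Ptpn1*, *Irs2*, and *Stat3*, and 17 of the 55681 probes mapped to them. The study profiled nuclei cut by laser microdissection from 2 female C57BL/6J mice aged 3 months, to find genes particular to the DMH. Each nucleus was measured on 2 arrays, named Arc1, Arc2, VMH1, VMH2, DMH1, DMH2, LH1, and LH2. The mice carried no treatment or engineered allele that the labels name, and the methods describe mice with food and water freely available. The time of dissection is not given in the sources used here. The sources used here do not state which arrays share a mouse, so every p-value measures the spread between these arrays alone. RNA was amplified before labelling. A dissected nucleus holds neurons, glia, and vessels together, so fewer cells of a type and less RNA per cell cannot be told apart.

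Leptin binds the receptor encoded by *Lepr* and activates the kinase JAK2, which phosphorylates the transcription factor STAT3. STAT3 induces *Socs3*, whose product blocks the receptor complex, and the phosphatase encoded by *Ptpn1* removes phosphate from JAK2 and from the insulin receptor. Insulin and IGF receptors signal through substrates such as IRS2, while the ghrelin receptor (*Ghsr*) and the GLP-1 receptor (*Glp1r*) are G protein-coupled. The Arc is known for the AgRP and POMC neurons that respond to leptin in opposite ways.

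The proximal promoters of *Socs3* and *Ghsr*, called higher in the Arc by limma against all 3 other nuclei, and of *Glp1r*, called higher there against the VMH and LH, are shown with the palindrome TTCNNNGAA, which STAT proteins bind, in capitals. The windows are the 250 bases before the RefSeq start site (GRCm38.p6), read 5′ to 3′ on the strand of the gene. The palindrome reads the same on both strands and was the only motif searched. It was found in 1 of 9 windows of 8 member genes, that of *Socs3*, with its first base at -154 from the start site. It was found in 2306 of all 32851 windows of the same length (7.02%). The windows shown are *Socs3* at chr11:117969367-117969616 on the minus strand, *Ghsr* at chr3:27371101-27371350 on the plus strand, and *Glp1r* at chr17:30901617-30901866 on the plus strand. *Insr* had no window in the table used.
Socs3: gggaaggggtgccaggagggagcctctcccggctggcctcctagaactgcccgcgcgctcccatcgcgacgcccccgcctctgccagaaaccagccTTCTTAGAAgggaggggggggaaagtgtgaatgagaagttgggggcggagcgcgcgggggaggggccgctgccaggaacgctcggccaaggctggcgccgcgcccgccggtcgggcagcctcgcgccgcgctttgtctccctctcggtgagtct
Ghsr: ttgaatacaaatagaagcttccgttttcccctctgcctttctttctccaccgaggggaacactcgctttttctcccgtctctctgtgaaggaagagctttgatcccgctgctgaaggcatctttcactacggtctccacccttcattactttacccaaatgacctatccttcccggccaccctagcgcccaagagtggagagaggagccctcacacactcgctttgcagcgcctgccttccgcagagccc
Glp1r: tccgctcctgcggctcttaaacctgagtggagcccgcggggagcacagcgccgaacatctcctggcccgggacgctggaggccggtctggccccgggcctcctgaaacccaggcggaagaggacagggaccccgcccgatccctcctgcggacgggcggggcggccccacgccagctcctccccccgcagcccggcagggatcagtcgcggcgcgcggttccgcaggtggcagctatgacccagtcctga
A match is a run of letters and not a measured binding site, and the absence of one in the other windows concerns these bases alone.

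Signals are given as scaled signals, the processed intensity of a probe after each array was brought to the same 75th percentile, and differences as limma log2 differences of scaled signals. limma was run on the 28896 probes that both arrays of some nucleus measured well above background. Before the scaling, the median log2 difference over these probes was -0.26 between the Arc and the VMH and -0.46 between the Arc and the DMH, and after it 0.01 and 0.02. Summed signals of marker genes were highest in the labelled nucleus for each of the 4 nuclei. The 6 Arc markers summed to 154730 and 159980 on the Arc arrays and to at most 6678 elsewhere. The 4 LH markers, however, also summed to 65982 and 75520 in the DMH against 125700 and 135860 in the LH. Of these, *Pdyn* went the other way, at 1708 and 1246 in the LH and between 2194 and 3911 elsewhere. The tested probes of *Hcrt*, *Pmch*, and *Lhx9* had their highest means in the LH. Over the tested probes the correlation of the 2 arrays was 0.981 for Arc1 and Arc2, 0.978 for the VMH arrays, 0.971 for the DMH arrays, and 0.938 for LH1 and LH2. LH2 correlated more with DMH2 (0.954) than with LH1, so the differences from the LH printed below with a value and a call, and the largest of *Lepr*, *Insr*, and *Igf1r*, are also given without LH1 and without LH2.

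All 9 genes had at least 1 probe that could be tested, 15 probes in total, and the other 2 probes, both of *Lepr*, were not well above background on any array. By the limma F-test among the nuclei, 5 of the 15 probes differed at an adjusted p of 0.05, against 8.34% of all probes tested, and they belonged to *Ghsr*, *Glp1r*, *Socs3*, and *Stat3*. Probes of these genes were higher in the Arc than in the VMH in 5 cases, against a background of 2.4% higher in the Arc. In 2 cases, *Ghsr* and *Socs3*, they were higher than in the DMH (0.533%), and with 1 probe of *Ptpn1* 6 were higher than in the LH (3.33%). None of the 15 probes was lower in the Arc than in another nucleus by limma, where 3.52%, 0.727%, and 6.02% of all probes were higher in the VMH, DMH, and LH. Between the VMH, the DMH, and the LH, limma called 0 of the 15 probes in all 3 comparisons, with backgrounds of 2.04% (VMH and DMH), 5.28% (VMH and LH), and 0.924% (DMH and LH). At an unadjusted p of 0.05 these 3 comparisons gave 2, 5, and 6 of the 15 probes, against 12.3%, 21%, and 15.5% of all probes, and the F-test gave 10, against 24.6%. The methods name a one-way test with Tukey-Kramer for more than 2 groups, though not for the arrays. By that test, adjusted over all probes, *Ghsr* alone passed among the nuclei and 0 comparisons of member probes between pairs of nuclei did. Its pair p-values, already adjusted over the 6 pairs by Tukey-Kramer, were adjusted again over all probes. The filter bears on these counts, because 3 of the 15 probes (*Ghsr*, *Socs3*, and 1 of *Ptpn1*) had both arrays well above background in the Arc and in no other nucleus. The median log2 difference over the 15 probes was 0.87 between the Arc and the VMH, 0.76 between the Arc and the DMH, and 1.68 between the Arc and the LH, whereas the medians over all probes tested were 0.01, 0.02, and 0.05. Without the 3 probes measured on both arrays of the Arc alone, the medians over the remaining 12 were 0.61, 0.38, and 1.13.

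**Figure D1:**
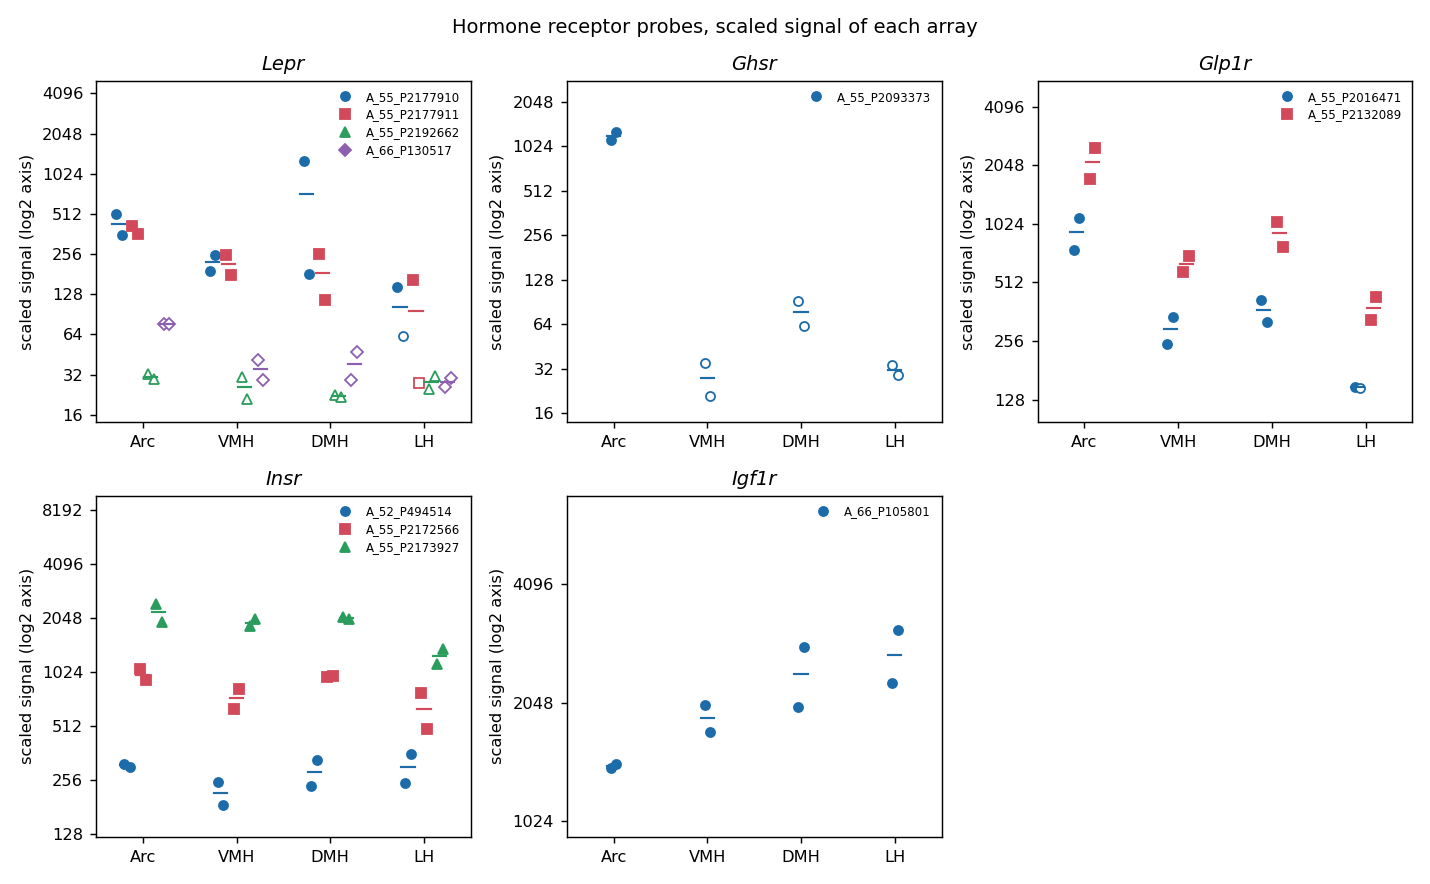
Scaled signal (log2 axis) of every probe of the 5 receptor genes on each array, by nucleus. Each point is 1 array, filled where the probe was well above background and open where it was not, and lines are arithmetic means of 2 arrays. *Ghsr* is filled only in the Arc, both *Glp1r* probes are highest in the Arc, and of the 3 *Insr* probes the brightest is lowest in the LH.

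*Ghsr*, the receptor through which ghrelin stimulates feeding and growth hormone release, was measured only in the Arc. Its probe (A_55_P2093373) read 1122 on Arc1 and 1283 on Arc2. It read 34.8 and 20.8 in the VMH, 91.1 and 62.4 in the DMH, and 34.1 and 28.8 in the LH, none of them well above background. Both Arc arrays stood far above the other 6, which did not exceed 91.1. The Arc mean was 1203 ± 114 (SD, n = 2). On the background-subtracted signals as deposited, and with the dim ones raised to the lowest measured signal of each array, the Arc level of *Ghsr* was at least 11.5-fold higher than that of the VMH, at least 12.8-fold higher than that of the DMH, and at least 11.7-fold higher than that of the LH. By limma the adjusted p was 0.000556, 0.00278, and 0.000614. The neighbours DMH and LH (adjusted p = 0.145 by limma) and LH and VMH (adjusted p = 0.731) are background readings and have no order. *Ghsr* was the 1 member whose Arc mean reached 10 times the means of all 3 other nuclei, a ratio met by 0.111% of the tested probes. It passed the filter on dim probes through the Arc alone, so nothing is read from that share. These calls were kept with any 1 array left out, at an adjusted p from the LH of 0.00173 without LH1 and 0.00104 without LH2 by limma. Under the normexp correction of background, which adds an offset to every signal, the log2 differences were 2.81, 2.11, and 2.42 from the VMH, DMH, and LH. Each passed but was smaller than the bound above, so the bounds hold only for the signals as deposited. The pattern over the 8 arrays was most like that of *Pou2f2* (Pearson r = 0.996 on the log2 scale), a transcription factor gene, *Lhfpl1* (0.985), and *Slc6a3* (0.983), the dopamine transporter gene. Each of these was likewise highest in the Arc, and the points share arrays and scaling. Because 6 of the 8 *Ghsr* readings are background, the likeness describes the step between the Arc and the other arrays and gives these genes no order.

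*Glp1r*, the receptor of the gut and brainstem peptide GLP-1, was highest in the Arc and lowest in the LH by both of its probes. Probe A_55_P2132089 read 1746 and 2520 in the Arc, 577 and 702 in the VMH, 1048 and 779 in the DMH, and 329 and 430 in the LH, well above background on all 8 arrays. Probe A_55_P2016471 read 749 and 1100 in the Arc, 248 and 339 in the VMH, 415 and 321 in the DMH, and 149 and 147 in the LH, where only LH1 was well above background. Within each probe both Arc arrays were above and both LH arrays below all others, and the VMH and DMH lay between. The log2 difference between the Arc and the LH was 2.48 for the first probe (SE 0.29, adjusted p = 0.00416 by limma) and 2.62 for the second (SE 0.28, adjusted p = 0.0033). That between the Arc and the VMH was 1.72 (adjusted p = 0.0178 by limma) and 1.65 (adjusted p = 0.0194). The difference from the DMH did not pass, at 1.22 (95% interval 0.54 to 1.89, adjusted p = 0.128 by limma) and 1.32 (0.65 to 1.98, adjusted p = 0.0957). In the order Arc, DMH, VMH, LH, no pair of neighbours differed at the threshold. The calls against the LH were kept with any 1 array left out, at 2.29 without LH1 and 2.67 without LH2 for the first probe. For the second the adjusted p by limma was 0.00786 without LH1, which leaves the LH with a background reading of LH2, and 0.00694 without LH2. Those against the VMH were lost without any 1 of Arc1, Arc2, VMH1, or VMH2, with differences between 1.37 and 1.99 and the highest adjusted p by limma 0.137. Without scaling they were lost too, at 1.45 (adjusted p = 0.0769 by limma) and 1.38 (adjusted p = 0.113). The difference of A_55_P2132089 from the DMH passed under the normexp correction (1.08, adjusted p = 0.0433 by limma). The signals most like those of *Glp1r* were of *Pcgf2* (r = 0.982 over 8 arrays), *Chpt1* (0.981), and *Irs4* (0.979), an insulin receptor substrate gene described below.

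*Lepr*, the leptin receptor, was read by 4 probes that the files pair with 3 RefSeq transcripts, and the files do not say which receptor isoform a probe detects. Probe A_55_P2177911 read 417 and 359 in the Arc, 250 and 179 in the VMH, 256 and 115 in the DMH, and 163 and 27.5 in the LH. Both Arc arrays were above the other 6, and LH2 was not well above background. The log2 difference between the Arc and the LH was 2.53 (SE 0.79, adjusted p = 0.0936 by limma) and did not pass in the main setting. It passed with the replicate numbers fitted as a block, as given below, though these were not shown to pair the samples. It was 1.25 without LH2 (adjusted p = 0.157 by limma). Without LH1 it passed (adjusted p = 0.0068), but there the LH was represented by the background reading of LH2 alone. Differences of the Arc from the VMH, at 0.87 (95% interval -0.99 to 2.72), and from the DMH, at 1.17 (-0.68 to 3.03), did not pass. The arrays did not overlap in either comparison. The intervals rest on a spread shared by all nuclei, which includes that of LH1 and LH2 (163 and 27.5).

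Probe A_55_P2177910 of the same transcript was printed on 2 spots and read 507 and 355 in the Arc, 191 and 254 in the VMH, 1268 and 181 in the DMH, and 145 and 61.7 in the LH. The high value came from 1 spot. On DMH1 the spots read 311 and 2652 before scaling, 8.52-fold apart, and the software marked neither as an outlier. With the brighter spot left out, a choice made after seeing the data, DMH1 read 266 and the DMH mean fell from 724 ± 769 to 224 ± 60.7 (SD, n = 2). For the Arc against the DMH, the log2 difference went from -0.17 (adjusted p = 0.984 by limma) to 0.95 (adjusted p = 0.521). That between the Arc and the LH stayed at 2.17, while its adjusted p by limma went from 0.165 to 0.0275. With both spots kept, it was 1.55 without LH2 (adjusted p = 0.376 by limma), and without LH1, which leaves an LH2 reading not well above background, the adjusted p was 0.125. The DMH level by this probe thus rested on 1 spot. Of the remaining probes, A_55_P2192662 did not exceed 33 on any array, and A_66_P130517 had means of 76.5 in the Arc and 28.0 to 38.4 elsewhere, all not well above background.

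**Figure D2:**
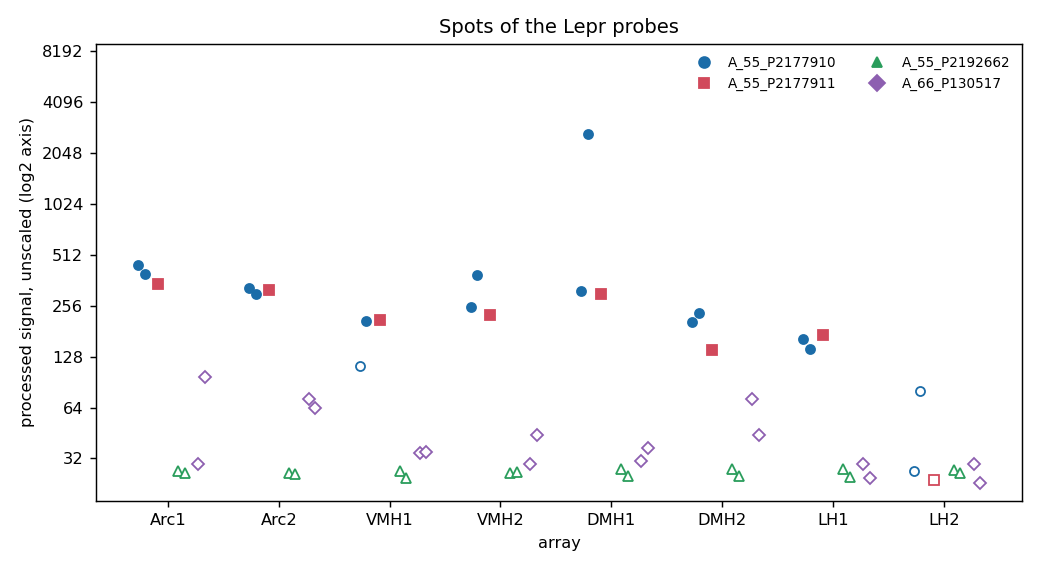
Processed signal before scaling (log2 axis) of each spot of the 4 *Lepr* probes on each array, filled where the spot was well above background. On DMH1 a single spot of A_55_P2177910 reads 2652 and its partner 311, and both spots of that probe are open on LH2.

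*Insr*, the insulin receptor, gave signals well above background on all 8 arrays by each of 3 probes, and no comparison of nuclei passed the test in the main setting. Probe A_55_P2173927 read 2463 and 1954 in the Arc, 1850 and 2015 in the VMH, 2070 and 2025 in the DMH, and 1142 and 1370 in the LH. Both LH arrays were below the other 6, with a log2 difference between the Arc and the LH of 0.81 (95% interval 0.30 to 1.32, adjusted p = 0.062 by limma). It was 0.68 without LH1 (adjusted p = 0.134 by limma) and 0.94 without LH2 (adjusted p = 0.0618). It passed under the normexp correction of background (0.71, adjusted p = 0.0352 by limma), with trended and robust moderation (adjusted p = 0.0359), and among the probes measured on all 8 arrays (adjusted p = 0.0399). Probe A_55_P2172566 read 1060 and 921 in the Arc, 638 and 827 in the VMH, 961 and 976 in the DMH, and 787 and 490 in the LH. Probe A_52_P494514 read 315 and 302 in the Arc, 251 and 185 in the VMH, 237 and 332 in the DMH, and 246 and 357 in the LH. For these 2 probes the LH arrays overlapped with those of the VMH, and their differences between the Arc and the LH were 0.67 (0.01 to 1.33) and 0.06 (-0.62 to 0.74). The 3 probes map to 1 transcript and did not give the same order of nuclei.

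*Igf1r*, the receptor of insulin-like growth factors, ran the other way. Its probe (A_66_P105801) read 1400 and 1428 in the Arc, 2023 and 1722 in the VMH, 1995 and 2842 in the DMH, and 2302 and 3128 in the LH. Both Arc arrays were below all 6 others, a pattern found in 10.9% of tested probes, and the DMH overlapped with the VMH and the LH, while both VMH arrays were below both LH arrays. The log2 difference between the Arc and the LH was -0.92 (95% interval -1.54 to -0.31, adjusted p = 0.0739 by limma). It did not pass in the main setting and passed under the normexp correction of background (-0.86, adjusted p = 0.0404), with trended and robust moderation (adjusted p = 0.0381), and with the filter on all 8 arrays (adjusted p = 0.0441). It was -1.15 without LH1 (adjusted p = 0.0517 by limma) and -0.70 without LH2 (adjusted p = 0.178).

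**Figure D3:**
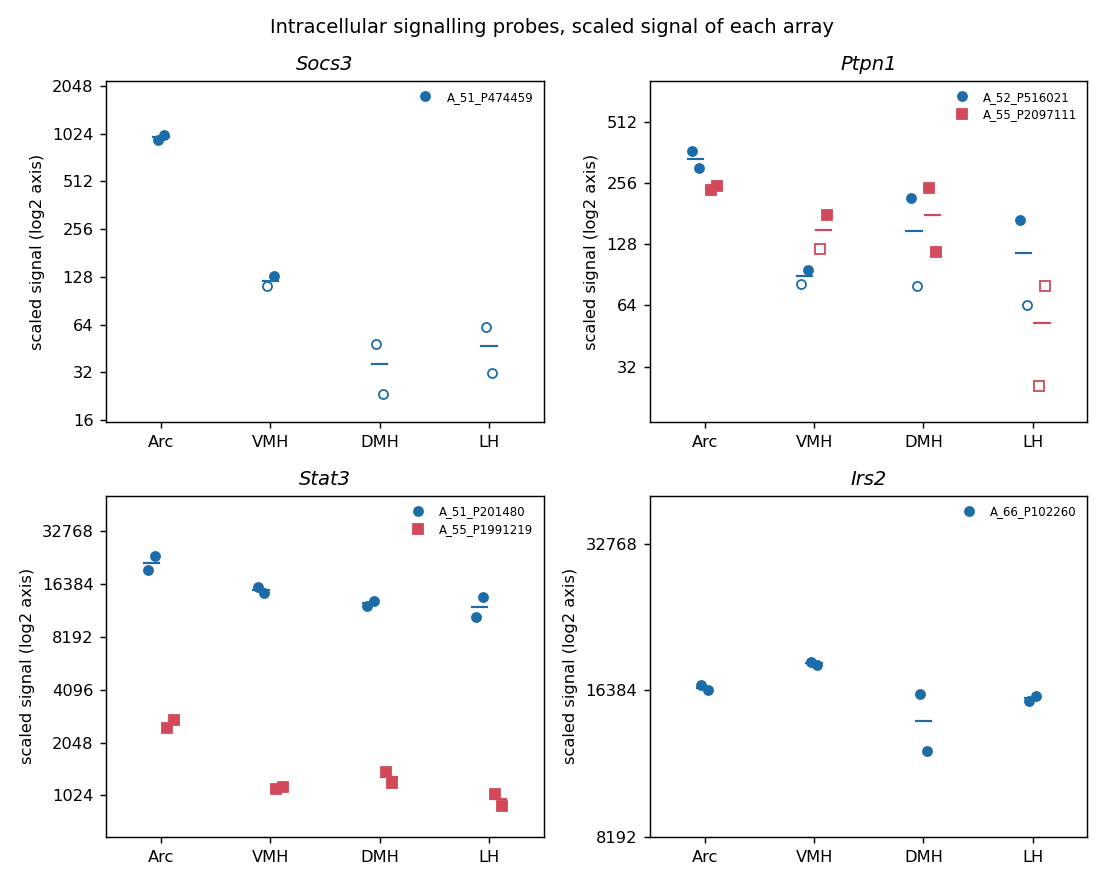
Scaled signal (log2 axis) of every probe of the 4 intracellular genes on each array, by nucleus, with points filled where the probe was well above background and lines at the arithmetic mean of 2 arrays. *Socs3* reads 938 and 1000 in the Arc and at most 130 elsewhere, and the single *Irs2* probe stays between 12272 and 18751.

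*Socs3*, the feedback inhibitor that STAT3 induces and whose promoter window holds the palindrome shown above, was measured on both arrays in the Arc and in no other nucleus. Its probe (A_51_P474459) read 938 and 1000 in the Arc, 112 and 130 in the VMH, 48.6 and 23.2 in the DMH, and 62.1 and 31.9 in the LH. Outside the Arc only VMH2 was well above background, and both Arc arrays were above the other 6. The Arc mean was 969 ± 43.8 (SD, n = 2), 8.0 times that of the VMH, with a log2 difference of 3.00 (SE 0.43, adjusted p = 0.0104 by limma). On the signals as deposited, its Arc level was at least 10.4-fold higher than that of the DMH (adjusted p = 0.00505 by limma) and at least 9.47-fold higher than that of the LH (adjusted p = 0.00247). The next neighbours, VMH and LH, had an adjusted p of 0.114 by limma, and LH and DMH are background readings. *Socs3* and *Ghsr* were the 2 members that limma called higher in the Arc against all 3 other nuclei, which 0.339% of tested probes were. Both passed the filter on dim probes through the Arc alone, so nothing is read from that share. The call against the VMH was lost without any 1 of Arc1, Arc2, VMH1, or VMH2, with differences between 2.89 and 3.11 and adjusted p by limma between 0.0647 and 0.0853. Those against the DMH and LH were kept with any 1 array left out, at an adjusted p from the LH of 0.00295 without LH1 and 0.00351 without LH2 by limma. Under the normexp correction, the differences were 1.83, 2.21, and 2.33 from the VMH, DMH, and LH, each passing, and the last 2 were smaller than the bounds above. The genes most like *Socs3* over the 8 arrays were *Npy1r* (r = 0.977), a receptor of neuropeptide Y, *Pomc* (0.966), the melanocortin precursor, and *Traf1* (0.958). As 5 of the 8 *Socs3* readings were not well above background, this too describes mainly the step between the Arc and the other arrays.

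*Stat3*, which carries the leptin signal to the nucleus, was read by 2 probes of different transcripts. Probe A_55_P1991219 read 2492 and 2746 in the Arc, 1114 and 1147 in the VMH, 1386 and 1208 in the DMH, and 1050 and 892 in the LH. Both Arc arrays were above the other 6. The log2 difference was 1.43 between the Arc and the LH (SE 0.20, adjusted p = 0.00789 by limma), 1.21 between the Arc and the VMH (adjusted p = 0.0178), and 1.02 between the Arc and the DMH (adjusted p = 0.0776). The last passed under the normexp correction (0.97, adjusted p = 0.0298 by limma) and with trended and robust moderation (adjusted p = 0.0443). Probe A_51_P201480, averaged over 10 spots, read 19540 and 23618 in the Arc, 15803 and 14533 in the VMH, 12306 and 13044 in the DMH, and 10576 and 13764 in the LH. Here too both Arc arrays were highest, but the difference from the LH was 0.83 (95% interval 0.31 to 1.36, adjusted p = 0.0632 by limma), and it was 0.64 without LH1 (adjusted p = 0.142) and 1.02 without LH2 (adjusted p = 0.0453). It also passed with quantile normalization (0.93, adjusted p = 0.0362 by limma), normexp (0.85, adjusted p = 0.0236), the filter on all 8 arrays (adjusted p = 0.0399), and trended and robust moderation (adjusted p = 0.0175). For A_55_P1991219 the call against the LH was lost without Arc1 (1.51, adjusted p = 0.0537 by limma) or Arc2 (1.36, adjusted p = 0.0633), and was kept without LH1 (1.55) or LH2 (1.32). The call against the VMH was lost without any 1 of Arc1, Arc2, VMH1, or VMH2, with differences between 1.14 and 1.28 and the highest adjusted p by limma 0.123. Without scaling both were lost, at 1.28 (adjusted p = 0.0675 by limma) and 0.94 (adjusted p = 0.195), and with only the Arc and LH arrays fitted the first had an adjusted p of 0.058.

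*Ptpn1*, the phosphatase PTP1B, gave dim signals by both probes. Probe A_52_P516021 read 369 and 302 in the Arc, 81.8 and 96.0 in the VMH, 217 and 79.5 in the DMH, and 168 and 64.4 in the LH, where VMH1, DMH2, and LH2 were not well above background. Both Arc arrays were above the others, yet, with these background readings included, the log2 differences of 1.92 from the VMH (adjusted p = 0.114 by limma), 1.35 from the DMH (adjusted p = 0.466), and 1.68 from the LH (adjusted p = 0.118) did not pass. The difference from the VMH passed without LH1 (adjusted p = 0.0496 by limma), with only the Arc and VMH arrays fitted (adjusted p = 0.0083), and with dim signals raised (1.63, adjusted p = 0.0436). Probe A_55_P2097111 read 236 and 247 in the Arc, 122 and 179 in the VMH, 241 and 117 in the DMH, and 25.6 and 79.5 in the LH, where neither array was well above background. Here the Arc and the DMH overlapped and both LH arrays were lowest. The Arc was at least 2.36-fold higher than the LH on the signals as deposited (adjusted p = 0.0442 by limma). This call was lost in 14 of 20 alternatives, among them the raised dim signals behind that bound (adjusted p = 0.0875 by limma) and normexp (0.85, adjusted p = 0.104), which gave a difference below it. It was also lost on leaving out any array but LH2, with an adjusted p by limma of 0.0713 without LH1 and 0.195 without Arc1, and was kept without LH2 (adjusted p = 0.00848).

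*Irs2*, the insulin receptor substrate that docks to the insulin and IGF receptors, was bright and nearly even. Its probe (A_66_P102260) read 16779 and 16383 in the Arc, 18751 and 18520 in the VMH, 16086 and 12272 in the DMH, and 15600 and 15971 in the LH. Both VMH arrays were above the other 6, as in 8.09% of tested probes. No comparison passed, and the 95% interval of the log2 difference was -0.66 to 0.32 between the Arc and the VMH and -0.42 to 0.56 between the Arc and the LH.

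**Figure D4:**
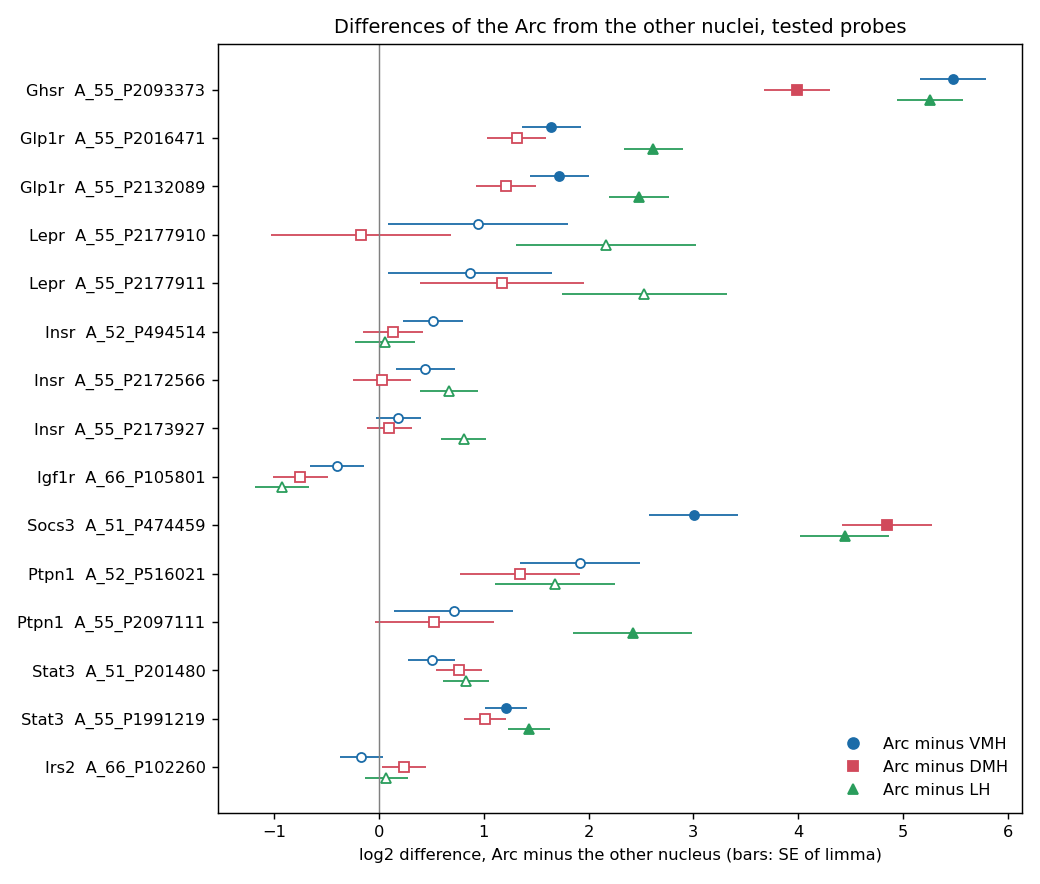
Log2 difference of the Arc from the VMH, DMH, and LH for the 15 tested probes, with the SE of limma as bars. Filled symbols passed an adjusted p of 0.05 and open ones did not. All 6 calls against the LH, 5 against the VMH, and 2 against the DMH lie to the right of 0, and the *Igf1r* probe lies to the left in all 3 comparisons.

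Over the members, both Arc arrays were above all 6 others for 8 of 15 probes from 6 genes (*Ghsr*, *Glp1r*, *Lepr*, *Ptpn1*, *Socs3*, and *Stat3*), against 8.61% of tested probes. These 8 include the 3 that passed the filter on dim probes through the Arc alone, so nothing is read from the count against that share. Both LH arrays were below all 6 others for 6 probes from 5 genes (*Glp1r*, *Insr*, *Lepr*, *Ptpn1*, and *Stat3*), against 9.21%. Of these, the *Ptpn1* probe was not well above background on either LH array. The *Lepr* probe and *Glp1r* probe A_55_P2016471 were not on LH2. The other tested probes of *Insr*, *Lepr*, *Ptpn1*, and *Stat3* did not show this pattern. Markers of other cells also moved between these nuclei. Tanycyte and ependymal markers, 8 of 10 of which could be tested, summed to 9648 and 10839 in the Arc and to between 3318 and 4817 elsewhere. Of these, *Rax* read 1738 and 1360 in the Arc and at most 120 elsewhere, while *Foxj1* and *Tmem212* were not well above background on any array. Neuron markers summed to 177830 and 186930 in the Arc and to between 195070 and 247980 elsewhere (*Stmn2*, an outlier spot on LH1, is missing there). Of their 13 tested probes, 5 were lower in the Arc than in the VMH, *Slc17a6* among them (1365 and 1618 against 8341 and 10588). The 2 higher in the Arc were *Gad1* (7310 and 7376 against 372 and 266) and *Gad2* (6277 and 8174 against 1382 and 923). Astrocyte markers summed to 87974 and 94045 in the Arc and to between 104200 and 154320 elsewhere. *Gfap*, an astrocyte gene, went the opposite way by both of its tested probes, with Arc means of 1516 and 5036 against 290 and 1256 in the VMH (adjusted p = 0.038 and 0.0308 by the limma F-test). Choroid plexus markers, 5 of 8 of which could be tested, summed to 4333 and 3976 in the Arc, 6858 and 5133 in the VMH, 4921 and 4792 in the DMH, and 3198 and 2570 in the LH. Among them *Ttr* was highest in the Arc, at 209 and 251 against at most 161 elsewhere, whereas *Clic6* read 1288 and 1856 in the Arc against 3267 and 3263 in the VMH. Markers of the neighbouring paraventricular nucleus, 3 of 4 tested, summed to 6939 and 1145 in the Arc, 503 and 1397 in the VMH, 2216 and 2792 in the DMH, and 5319 and 14387 in the LH. Of these, *Crh* read 28.7 and 26.8 in the Arc, 2026 and 2543 in the DMH, and 4931 and 3623 in the LH (adjusted p = 0.00409 by the limma F-test), and *Oxt* read 6560 on Arc1 and 8332 on LH2 but 848 on Arc2 and 109 on LH1. Endothelial markers, 9 of 10 tested, summed to 14344 and 18727 in the LH and to between 8905 and 12510 elsewhere. Oligodendrocyte markers, all 10 tested, summed to 105460 and 112370 in the LH and to between 12575 and 35645 elsewhere. Of 8 pituitary markers, 2 could be tested, *Tbx19* and *Lhb*, and these summed to 334 and 333 in the Arc and to between 56.9 and 237 elsewhere. *Tbx19* read 198 and 254 in the Arc, 31.5 and 19.4 in the VMH, 111 and 122 in the DMH, and 24.5 and 30.6 in the LH (adjusted p = 0.00323 by the limma F-test). *Lhb* read at most 137 on any array, and *Gh*, *Prl*, *Pou1f1*, *Pitx1*, and *Tshb* were not well above background on any array. Arc1 read 1425 for *Cga*, against at most 30.4 on the other arrays. The part of these markers in the members' differences was not tested.

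A list of 73 further genes of the same pathways had 109 probes, of which 87 from 60 genes could be tested. The F-test called 22 of them (25.3%) from 17 genes, against 8.34% of all probes. The Arc was higher than the VMH for 13 and lower for 6, against 2.4% and 3.52% of all probes. It was higher than the DMH for 7 and lower for 1 (0.533% and 0.727%). Against the LH it was higher for 11 and lower for 8 (3.33% and 6.02%). The *Cish* probe passed the filter on dim probes through the Arc alone, and the called *Igf1* probe through the LH alone. The list was also chosen with earlier results of these data known. Nothing is therefore read from these counts against the shares. The median log2 differences over the 87 probes, at -0.02, -0.02, and -0.12, lay close to those over all probes.

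**Figure D5:**
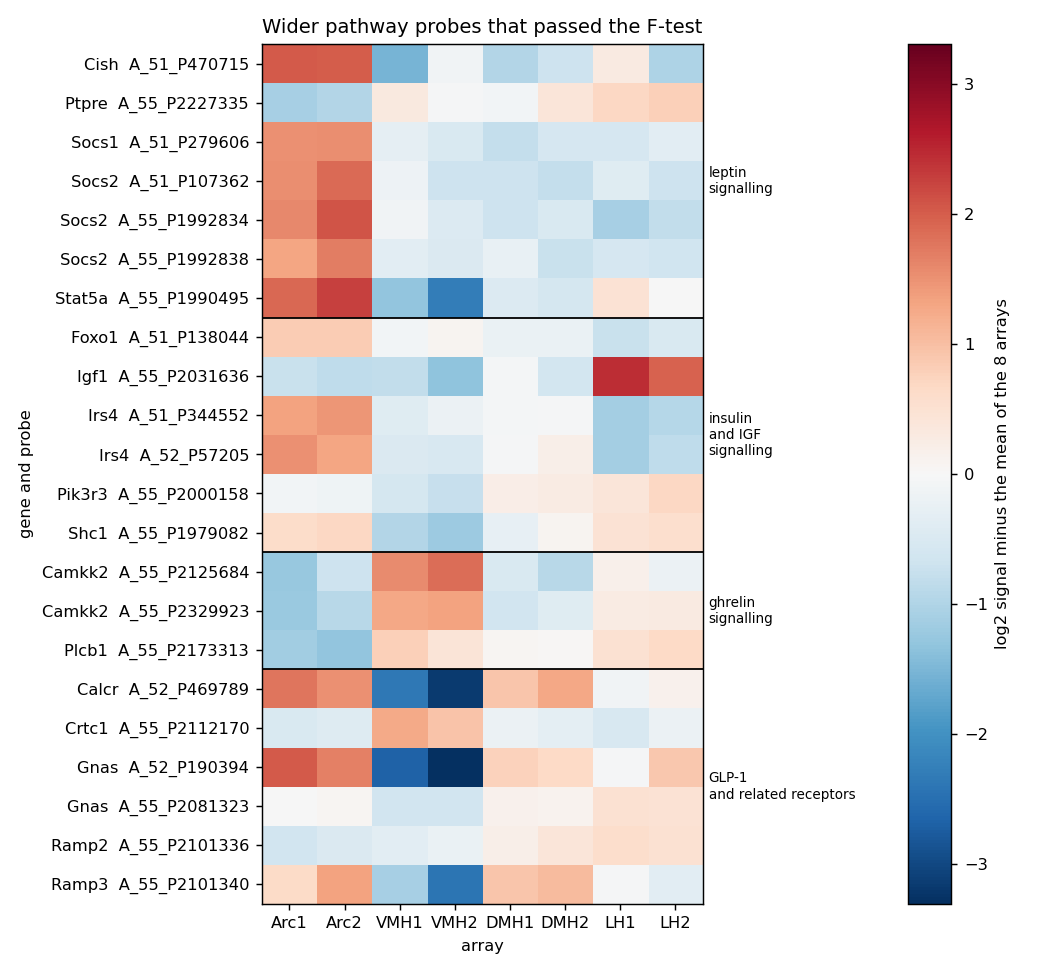
Log2 scaled signal of each array minus the mean of the 8 arrays for the 22 probes of the wider list that passed the F-test, grouped by pathway. *Stat5a*, *Cish*, *Socs1*, and the 3 *Socs2* probes are red on both Arc arrays, *Camkk2* is red on both VMH arrays, and *Calcr*, *Ramp3*, and both *Gnas* probes are blue in the VMH.

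In the leptin and cytokine receptor pathway, 7 of 17 tested probes passed the F-test, from *Stat5a*, *Cish*, *Socs1*, *Socs2*, and *Ptpre*. *Stat5a*, a transcription factor of the same family as *Stat3*, read 1350 and 1748 in the Arc, 146 and 74.4 in the VMH, 264 and 239 in the DMH, and 503 and 356 in the LH. Its log2 difference between the Arc and the VMH was 3.88 (SE 0.36, adjusted p = 0.00239 by limma), and the Arc was also higher than the DMH and the LH. VMH2 was not well above background, and the difference from the VMH ranged from 2.50 to 4.37 over the alternatives. *Socs2*, a further gene of the suppressor family of *Socs3*, read 1292 and 1828 in the Arc and between 201 and 399 on the other arrays by probe A_55_P1992834. The Arc was 2.79 above the LH on the log2 scale (SE 0.26, adjusted p = 0.00227 by limma), at 2.64 without LH1 and 2.94 without LH2, both passing, and the other 2 probes of the gene were likewise higher in the Arc than in each nucleus. *Cish*, which encodes another member of that family, was well above background only in the Arc, at 366 and 358, and was at least 3.48-fold higher there than in the VMH (adjusted p = 0.0304 by limma). That call was lost without Arc1, Arc2, VMH1, DMH1, or DMH2, with adjusted p by limma up to 0.168. It was also lost without scaling (adjusted p = 0.069 by limma) or with replicate numbers fitted as a block (adjusted p = 0.0502), and normexp gave a difference below the bound (1.13, adjusted p = 0.00364). *Socs1*, chosen after its values were seen, read 1443 and 1460 in the Arc and at most 409 elsewhere. *Ptpre*, a phosphatase gene, went the opposite way and was lower in the Arc than in the VMH and the LH. The kinase gene *Jak2* and *Stat5b* did not pass.

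In the insulin and IGF pathway, 6 of 41 tested probes passed, from *Irs4*, *Igf1*, *Shc1*, *Foxo1*, and *Pik3r3*. *Irs4*, an insulin receptor substrate found mainly in the hypothalamus, read 15222 and 16704 in the Arc, 4602 and 5364 in the VMH, 5856 and 5881 in the DMH, and 2769 and 3147 in the LH. It was 2.43 higher in the Arc than in the LH on the log2 scale (SE 0.20, adjusted p = 0.00159 by limma), at 2.34 without LH1 and 2.53 without LH2, both passing, and was higher in the Arc than in each nucleus by both probes, unlike *Irs2* above. *Igf1*, the growth factor, was well above background only in the LH by probe A_55_P2031636, at 254 and 182, and was at least 2.07-fold higher there than in the VMH (adjusted p = 0.00312 by limma). With dim signals set to the lowest measured level, that call was lost (-1.05, adjusted p = 0.0623 by limma), whereas it was kept without LH1 (adjusted p = 0.0063) and without LH2 (adjusted p = 0.00249), and the gene's other 3 probes were not testable. *Shc1*, an adaptor of the insulin receptor, was 1.72 higher in the Arc than in the VMH (SE 0.21, adjusted p = 0.00656 by limma). This was lost without Arc1, Arc2, or VMH2, at adjusted p by limma of 0.0564, 0.0594, and 0.0523. *Foxo1*, a transcription factor gene that insulin signalling restrains and chosen after its values were seen, was 1.46 higher in the Arc than in the LH (adjusted p = 0.00664 by limma), which was lost without Arc1 (adjusted p = 0.0578) or Arc2 (adjusted p = 0.0523). It was also lost without scaling (1.30, adjusted p = 0.0577 by limma) and with only the Arc and LH arrays fitted (adjusted p = 0.054), and was kept at 1.34 without LH1 and 1.57 without LH2. These values are of probe A_51_P138044. The gene's other tested probe, A_52_P453884, also had its highest mean in the Arc but did not pass the F-test (adjusted p = 0.0589 by limma). The kinase genes *Pik3ca*, *Akt1*, *Akt2*, *Gsk3b*, and *Mtor* had no probe that passed the F-test.

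In the ghrelin pathway, 3 of 12 tested probes passed, from *Camkk2* and *Plcb1*, and all had their lowest mean in the Arc, where *Ghsr* was highest. The 3 probes of *Mrap2* had their highest means in the Arc and did not pass (adjusted p = 0.438, 0.103, and 0.0739 by the limma F-test). *Camkk2*, a kinase that activates AMPK, read 277 and 410 in the Arc, 1948 and 2393 in the VMH, 469 and 352 in the DMH, and 738 and 577 in the LH by probe A_55_P2125684. The log2 difference between the Arc and the VMH was -2.68 (SE 0.29, adjusted p = 0.00398 by limma). *Plcb1*, a phospholipase downstream of Gq, did not pass the F-test by probe A_55_P1980730 (adjusted p = 0.0509 by limma), also lowest in the Arc. Probe A_55_P2173313, which passed, averaged 1221 ± 93.6 on the Arc arrays and 4427 ± 774 on the VMH arrays (SD, n = 2). The log2 difference was -1.85 (SE 0.21, adjusted p = 0.00501 by limma), and without Arc2 its adjusted p was 0.0509. The probe of ghrelin itself (*Ghrl*) stayed at background on each of the arrays.

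Among GLP-1 and related receptor genes, 6 of 17 tested probes passed, from *Gnas*, *Calcr*, *Ramp3*, *Ramp2*, and *Crtc1*. *Calcr*, the calcitonin and amylin receptor, read 4312 and 3608 in the Arc, 244 and 139 in the VMH, 2385 and 3069 in the DMH, and 1157 and 1376 in the LH. The Arc was 4.42 above the VMH on the log2 scale (SE 0.31, adjusted p = 0.000966 by limma), and both arrays of the VMH were lowest. *Ramp3*, which encodes a partner protein of that receptor, read 2959 and 4811 in the Arc, 892 and 359 in the VMH, 3607 and 3941 in the DMH, and 1868 and 1504 in the LH. Its log2 difference between the Arc and the VMH was 2.74 (SE 0.45, adjusted p = 0.0164 by limma), lost without Arc1, Arc2, or VMH2 at adjusted p of 0.0653, 0.115, and 0.0594. The 3 probes of *Gnas*, the gene of the G protein subunit that couples these receptors to cAMP, map to 3 transcripts. Whether each transcript encodes that subunit is not given in the sources used here. Both probes that passed the F-test were lowest in the VMH but differed in the nucleus where they were highest. Probe A_52_P190394 had an Arc level at least 6.28-fold higher than its VMH level (adjusted p = 0.00117 by limma; 2.29 on the log2 scale under normexp, which is less than this bound), A_55_P2081323 was highest in the LH (14802 and 14470, against 6669 and 6675 in the VMH), and A_55_P2081313 did not pass, with means between 14964 and 16242. Genes of the peptides and enzymes on the list, *Gcg*, *Gip*, and *Dpp4*, and the receptor genes *Gipr* and *Glp2r* were not well above background on any array.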

How the data were processed

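RNA of 4 laser-microdissected nuclei was measured on 1-color Agilent arrays, 2 per nucleus. The deposited files hold the processed intensity of each spot, which the authors made with Agilent Feature Extraction (version 10.7.3.1 per the file headers, 11.5.1.1 per the submitters' notes), with the background subtracted and no scaling between arrays. The red channel is what the files hold, while the dye is Cy3 by the labels and Cy5 by the methods. A deposited value table gives the mean intensity per probe as whole numbers, and at least 99.73% of its values matched to within 0.51. The array files also give marks for outlier spots and for spots well above background.

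After outlier spots were dropped, the mean over the spots of each probe was scaled to a common 75th percentile, with divisors of geometric mean 1, and turned to log2. Symbols came from RefSeq accessions (26762 of 28390 matched). The lowest scaled signal well above background was between 79.3 and 132, and the number of arrays limits the precision. One limma 3.58.1 model (R 4.3.3) with a mean per nucleus was fitted to the 28896 probes, with 4 residual and 3.02 prior degrees of freedom, an F-test and 6 pairwise contrasts, adjusted by Benjamini-Hochberg at 0.05. Lower bounds raise dim signals to the lowest measured signal of an array and compare geometric means. The steps were tested on simulated data.

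The members, pathway lists, and marker lists were chosen with earlier results of these data known. Every probe of a member is accounted for. Genes of the wider list are named where they passed the F-test, with values for up to 3 per list with the largest range. For the lead probes past the F-test, the 3 genes with the highest correlation are named, and the like genes of *Stat3* are not given because its lead probe did not pass. Other genes were named after their values were seen.

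Alternatives were no scaling, quantile normalization, normexp with an offset of 50, the deposited table, no filter, outlier spots kept, a filter on all 8 arrays, and raised dim signals. Others were the replicate number as a block, trended and robust moderation, a one-way test with Tukey-Kramer, leaving out each array, and only the 2 nuclei compared. Leaving out the brighter *Lepr* spot was chosen after seeing the data. Promoter sequences are from RefSeq (GRCm38.p6), and 8 of 9 member genes matched. Probe sequences were not used here.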

Additional observations from a re-analysis of the deposited data

How the results depend on the processing

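The precision of every value is limited by 2 arrays per nucleus, and for dim probes by signal over background. Of 38 single differences followed through the alternatives, 27 were called, and 3 values in all reversed, each of *Lepr* probe A_55_P2177910 between the Arc and the DMH, from -0.17 to 0.08 without Arc2, 1.23 without DMH1 (against -1.58 without DMH2), and 0.95 with the brighter DMH1 spot left out. In the other values 671 kept their side of the threshold, 85 fell under it, and 20 passed it. The count of member probes past the F-test was 5 in the main setting. It was 2 among the 8 probes left by a filter on all 8 arrays, which drops *Ghsr* and *Socs3*. By the one-way test it was 1 (*Ghsr*). The 13 comparisons of member probes between pairs of nuclei became 7 and 0. For the last, p-values were adjusted over the pairs and again over all probes, and the part of this was not tested. The 22 probes of the wider list became 8 by the one-way test. With 1 array left out, these counts ranged from 2 (without Arc2) to 6, from 7 (without Arc1 or Arc2) to 19 (without LH1), and from 10 (without Arc2) to 22. A lone array is there assumed to vary like the others. The normexp background correction reduced the differences of dim probes by over 1.5 times, as given for *Ghsr* and *Socs3*, with each of their calls kept.

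The replicate numbers were not shown to pair the samples. The deviations of same-numbered arrays correlated between -0.0256 and 0.258 over nuclei. With the number as a block, 5 member probes passed the F-test, 13 comparisons of member probes passed, and 18 probes of the wider list passed. Under the block the call of *Ptpn1* between the Arc and the LH (adjusted p = 0.057 by limma) and that of *Cish* between the Arc and the VMH (adjusted p = 0.0502) were lost, and that of *Lepr* probe A_55_P2177911 gained (adjusted p = 0.0443).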
